A study of Homo sapiens with 6 samples.

Results

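Expression of 8 genes was followed in 253J cells, a human bladder cancer line, after knockdown of FTO, the enzyme that removes the N6-methyl mark (m6A) from adenosine in RNA. The genes encode 7 secreted factors of the stress response, STC1, STC2, ADM, ADM2, GDF15, FGF21 and VEGFA, and the receptor for very-low-density lipoprotein, VLDLR. They were chosen from among 60483 gene IDs by name, on earlier results of these same libraries, both for the siFTO cells against the controls and for siFTO replicates 4 and 5 against replicate 6. Their values in those comparisons are therefore a description, carry no p-value and support no conclusion. Total RNA was sequenced from 3 libraries of cells given a control siRNA (control replicates 1, 2 and 3) and 3 libraries of cells given an siRNA against FTO (siFTO replicates 4, 5 and 6). All 6 libraries are described as coming from the same line grown in RPMI-1640 with fetal bovine serum. No other agent or allele is named. The labels name an siRNA, whereas the methods of the study describe shRNA against FTO, and the time between transfection and harvest is not given in the labels. Nothing states that the replicates were separate cultures, so their spread may be technical.

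The stanniocalcins STC1 and STC2 are secreted glycoproteins linked to calcium and phosphate balance and to cell survival under stress. Adrenomedullin (ADM) and intermedin (ADM2) are peptides of the calcitonin family that act through the receptor CALCRL paired with a RAMP protein. VEGFA and ADM are classical targets of hypoxia-inducible factors, and VLDLR can also be induced by low oxygen. GDF15, FGF21 and ADM2 are known targets of ATF4, the transcription factor of the integrated stress response, in which phosphorylation of eIF2 alpha slows general translation and favours translation of ATF4. STC2 and VEGFA too have been described as induced in this response, so the same gene can lie downstream of several stress pathways.

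The letters before the RefSeq start of the genes were read for the elements of these pathways, and the stretches that hold one are shown so that they can be set beside the values. RefSeq promoters of 6 of the 8 genes (STC2, ADM, ADM2, VLDLR, GDF15 and FGF21), on GRCh38.p14, were searched over the 250 bases before the start, on both strands. The core of the C/EBP-ATF response element, TGATGNAAN, was found in 1 of the 6, FGF21, and in 3.13% of 35116 promoters. It lay on the opposite strand from base -55 to base -47. The cAMP response element TGACGTCA was found in 0 of the 6, against 1.65% of all promoters. For the core of the hypoxia response element, ACGTG was found in 0 of the 6 (18.5% of all promoters), and GCGTG in 4 of the 6 (32.2% of all promoters). The stretches with a match are given below in the direction of the gene, with the match in capitals, either as searched or as its reverse complement. They lie at chr19:48755439-48755507 (plus strand) for FGF21, chr5:173328617-173328664 (minus strand) for STC2, chr9:2621611-2621696 and chr9:2621741-2621775 (plus strand) for VLDLR, chr11:10304957-10304991 (plus strand) for ADM and chr22:50481303-50481337 (plus strand) for ADM2.
FGF21, TGATGNAAN: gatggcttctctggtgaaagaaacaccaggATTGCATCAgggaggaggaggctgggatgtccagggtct
STC2, GCGTG: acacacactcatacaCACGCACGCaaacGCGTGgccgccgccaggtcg
VLDLR, GCGTG: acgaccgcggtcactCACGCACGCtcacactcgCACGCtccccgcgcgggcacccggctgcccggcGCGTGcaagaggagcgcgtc
VLDLR, GCGTG nearer the start: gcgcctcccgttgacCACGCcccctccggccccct
ADM, GCGTG: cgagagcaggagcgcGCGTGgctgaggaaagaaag
ADM2, GCGTG: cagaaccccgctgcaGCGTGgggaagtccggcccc
In STC2 and in VLDLR a pair of GCGTG matches shares 1 base, and no match of one element overlaps a match of another. The stretches of STC2 and ADM lie before the RefSeq start but inside the wider span that GENCODE 29 gives these genes. These are matches of letters and not measured sites.

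Read counts for each gene were deposited, and their totals ranged from 10991789 to 19891269 in the controls and from 13162731 to 15709975 in the siFTO libraries. Levels are given in CPM, counts put on a common library size, here scaled by TMM. FTO itself stood at 31.8, 21.4 and 31.2 CPM in control replicates 1, 2 and 3 and at 20.2, 20.7 and 15.8 CPM in siFTO replicates 4, 5 and 6. It fell by 0.57 ± 0.16 (standard error) on the log2 scale with an adjusted p of 0.0209 (edgeR quasi-likelihood test), but this call was lost without control replicate 1 (adjusted p = 0.107 in edgeR) or 3 (adjusted p = 0.113 in edgeR). Among 17 urothelial markers, UPK1B was at 0 in every library. UPK1A, UPK2, UPK3A, GATA3, TP63, KRT5 and KRT17 stayed below 1 CPM, and UPK3B stood at 2.17 to 2.68 CPM in the controls. FOXA1 (104.5 CPM on average in the controls), PPARG (66.1 CPM), TRIM29 (58.0 CPM), ELF3 (16.5 CPM) and KRT13 (10.8 CPM) were present. GRHL3 (4.65 CPM), KRT20 (4.24 CPM) and KRT7 (1.23 CPM) were lower in the controls. Of 15 intestinal markers, 8 reached 10 CPM in every control. LGALS4, VIL1 and CDX2 were the highest there and averaged 350.1, 296 and 258 CPM. MUC2, TFF3, SPDEF, GPA33, ISX, FABP1 and PHGR1 were low, with control averages from 0.61 CPM (PHGR1) to 8.8 CPM (ISX). The uroplakins, which define differentiated urothelium, were thus at or near 0 in cells labelled as bladder cancer. Replicates 4 and 5 stood apart from replicate 6 and the controls. The summed level of 20 fibroblast and mesenchymal markers was 40.8 to 45.5 CPM in the controls, 2325 and 2864 CPM in siFTO replicates 4 and 5, and 60.7 CPM in replicate 6. Of these 20 markers, 11 reached 10 CPM in both replicates 4 and 5, 2 did in replicate 6 and 0 did in all controls. Of the 10 tested, 8 rose, where 19.5% of all genes tested rose. Their median log2 fold change was 4.32, and it was 0.705 with replicate 6 alone. Within that list VIM reached 636 and 730.4 CPM in replicates 4 and 5 and only 0.292 CPM in replicate 6, COL1A2 reached 121 and 156 CPM and only 0.219 CPM, POSTN was at 0 everywhere, and THY1, COL3A1 and PDGFRA stayed below 1 CPM. The 13 leukocyte markers summed to 5.27 to 7.07 CPM in the controls, 75.6 and 90.5 CPM in replicates 4 and 5 and 7.95 CPM in replicate 6. In replicates 4 and 5 most of it came from CD74, which had 61.1 and 75.3 CPM there but 0.0729 CPM in replicate 6. The summed endothelial markers stood at 12.3 to 13.3 CPM in the controls and 14.8 to 15.5 CPM in the siFTO libraries. The part of these differences in the results below was not tested, and each member and each gene list is given with replicate 6 apart. In such bulk RNA, more cells of one kind and more RNA per cell cannot be told apart.

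Of the 8 genes, 6 passed the filter on low counts (STC2, ADM, ADM2, GDF15, FGF21 and VEGFA), and STC1 and VLDLR did not. With all 3 siFTO libraries, 2 of these 6 were called higher (STC2 and ADM) and 2 lower (ADM2 and FGF21). The same edgeR test called 19.5% of the 14965 tested genes higher and 17.9% lower, and nothing is read from the members' counts since they were chosen from this comparison. The siFTO and control libraries did not overlap for 2 of the 8 genes, ADM2 and FGF21, both lower in siFTO, whereas no gene of the 8 was higher in siFTO without overlap. Over all tested genes 25.8% were higher and 25.6% lower without overlap. Replicates 4 and 5 both exceeded replicate 6 by at least 2-fold for 6 of the 8 genes, among them 4 of the 6 tested, against 3.16% of all tested genes. The count includes FGF21, which rests on 3 and 8 counts against 1, and without it the number is 5 of 8 and 3 of 6. With replicate 6 as the only knockdown library, 0 of the 6 were called higher and 4 were called lower (STC2, ADM2, FGF21 and VEGFA), where 6.17% of 15713 tested genes were called higher and 5.89% lower.

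**Figure D1:**
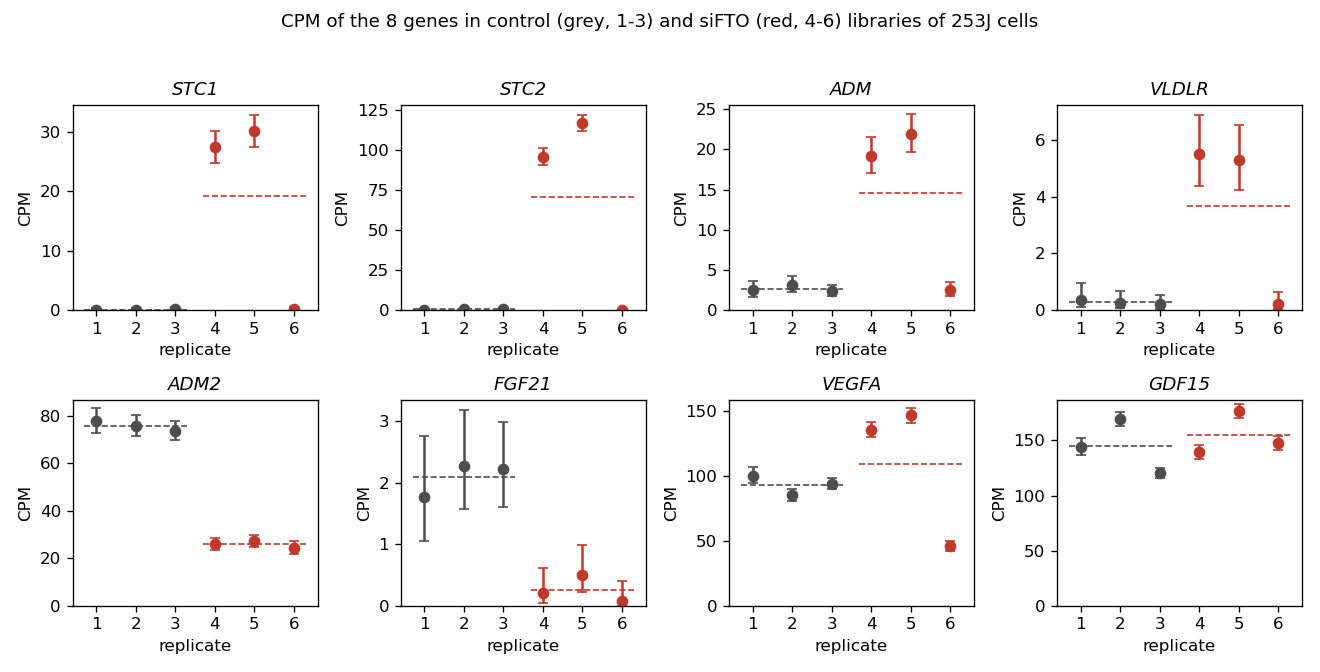
Level of each of the 8 genes in CPM, on a linear axis from 0, in control replicates 1 to 3 (grey) and siFTO replicates 4 to 6 (red). Points are libraries, bars are 95% Poisson intervals of the counts and dashed lines are group means. STC1, STC2, ADM and VLDLR were high in replicates 4 and 5 alone, whereas ADM2 and FGF21 were low in all 3 siFTO libraries.

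STC2 (ENSG00000113739.9) was close to silent in the controls and was the member with the widest span of levels. It had 4, 12 and 15 counts in control replicates 1, 2 and 3, that is 0.372, 0.804 and 0.775 CPM. In siFTO replicates 4 and 5 it had 1353 and 1882 counts (95.7 and 117.0 CPM), and in replicate 6 it had 0 counts. The siFTO libraries thus lay on both sides of the controls by their measured values. The 95% Poisson interval of replicate 6 (0 to 0.269 CPM) overlapped that of control replicate 1 (0.101 to 0.953 CPM). With a floor of 3 counts in place of 0 (0.219 CPM in replicate 6), replicate 4 was at least 438-fold and replicate 5 at least 535-fold above replicate 6, and the control mean of 0.65 CPM was at least 2.97-fold above it. These bounds take the numerator as measured, and they and the intervals below cover counting error only. Over all 3 siFTO libraries edgeR fitted a log2 fold change of 6.68 (standard error 1.44), and limma voom fitted 3.62. With limma voom, or without any 1 of the 3 control libraries, the gene was no longer called. In GENCODE 29 on GRCh38 the gene spans chromosome 5 from 173314713 to 173329503 on the minus strand.

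STC1 (ENSG00000159167.10), the other stanniocalcin, followed the same libraries. Its counts were 0, 1 and 4 in the controls, 387 and 484 in siFTO replicates 4 and 5, and 2 in replicate 6. On the CPM scale this is at most 0.207 in a control, 27.4 and 30.1 in replicates 4 and 5, and 0.146 in replicate 6. Replicate 6 lay inside the range of the controls. The ratio of replicate 4 to replicate 6 was 188 (95% counting interval 51.6 to 1560), and that of replicate 5 to replicate 6 was 206 (56.8 to 1710), from a denominator of only 2 counts. No fold is given for replicate 6 against the controls, as both are near 0. The gene failed the filter and has no fitted fold change. GENCODE 29 on GRCh38 places it on chromosome 8 from 23841915 to 23854807, minus strand.

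VLDLR (ENSG00000147852.14) binds apolipoprotein E-rich lipoproteins and also reelin, and it is the only receptor among the 8. It had 4 counts in each of the 3 controls (0.207 to 0.372 CPM), 78 and 85 counts in siFTO replicates 4 and 5 (5.52 and 5.28 CPM), and 3 counts in replicate 6 (0.219 CPM). As for STC1, replicate 6 lay inside the range of the controls. Replicate 4 was 25.2-fold (95% counting interval 8.32 to 125) and replicate 5 24.2-fold (7.99 to 120) above replicate 6. The gene lies on chromosome 9 from 2621834 to 2660053, plus strand, in the same release.

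ADM (ENSG00000148926.8) encodes adrenomedullin, a vasodilator peptide released by many cells at low oxygen. Its level was 2.51, 3.15 and 2.38 CPM in the controls (27, 47 and 46 counts), 19.2 and 21.9 CPM in siFTO replicates 4 and 5 (271 and 353 counts) and 2.55 CPM in replicate 6 (35 counts). Replicate 6 fell between the controls, so the groups overlapped. The ratio to replicate 6 was 7.51 (95% counting interval 5.27 to 11) for replicate 4 and 8.60 (6.07 to 12.5) for replicate 5. The fitted log2 fold change was 2.45 (standard error 0.59) over all 3 siFTO libraries and -0.07 (standard error 0.36) for replicate 6 alone. As with STC2, the call was lost with limma voom and without any 1 of the control libraries. ADM spans chromosome 11 from 10304680 to 10307397, plus strand.

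VEGFA (ENSG00000112715.19), the growth factor that drives new blood vessels, was abundant in every library. It stood at 100.4, 85.6 and 94.2 CPM in the controls, at 136 and 147 CPM in siFTO replicates 4 and 5, and at 46.1 CPM in replicate 6. The siFTO libraries therefore surrounded the controls, with both high values above and the low one below the whole control range. Relative to the control mean of 93.4 ± 7.43 CPM (SD, n = 3), the log2 ratio was 0.54 in replicate 4, 0.66 in replicate 5 and -1.02 in replicate 6. Replicate 4 was 2.95-fold (95% counting interval 2.69 to 3.23) and replicate 5 3.20-fold (2.93 to 3.50) above replicate 6. Over all 3 libraries the fitted log2 fold change was 0.24 (standard error 0.32) and was not called, whereas without replicate 6 it was 0.59 and called. The gene spans chromosome 6 from 43770184 to 43786487, plus strand.

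**Figure D2:**
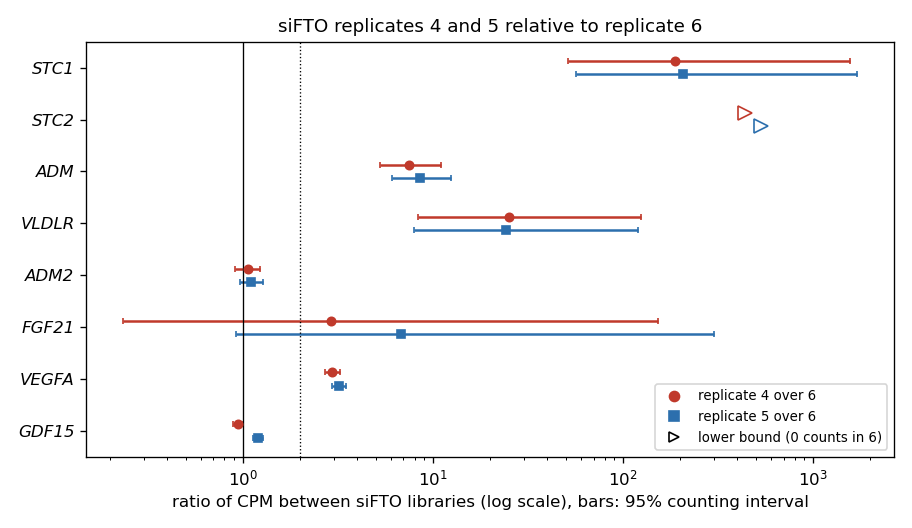
Ratio of CPM in siFTO replicate 4 (red circles) and replicate 5 (blue squares) to replicate 6, on a log axis, with 95% counting intervals, and open triangles for the lower bounds of STC2, which had 0 counts in replicate 6. The solid line marks equality and the dotted line 2-fold. STC1, ADM, VLDLR and VEGFA lie beyond 2-fold with their whole interval, and STC2, which has no interval, does so with its lower bounds. ADM2 and GDF15 lie near equality, and the intervals of FGF21 are wide.

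ADM2 (ENSG00000128165.8), which encodes intermedin, was lower in every siFTO library. Its relative ADM went the other way in replicates 4 and 5 and stayed within the control range in replicate 6. The level of ADM2 was 78.0, 75.7 and 73.8 CPM in the controls and 25.9, 27.2 and 24.5 CPM in siFTO replicates 4, 5 and 6. The groups did not overlap, and the replicates of each lay close together, at 75.8 ± 2.09 CPM (SD, n = 3) in the controls and 25.9 ± 1.34 CPM (SD, n = 3) in siFTO. The log2 fold change was -1.55 (standard error 0.09), and it was -1.63 with replicate 6 alone. Replicate 4 over replicate 6 was 1.06 (95% counting interval 0.909 to 1.23), and replicate 5 over replicate 6 was 1.11 (0.96 to 1.28). The libraries that differed many-fold in STC1, STC2 and ADM thus gave like values of ADM2. It lies on chromosome 22 from 50481556 to 50486440, plus strand.

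FGF21 (ENSG00000105550.7), a hormone of fasting and of mitochondrial and amino acid stress, was scarce but lower in all 3 siFTO libraries. It had 19, 34 and 43 counts in the controls (1.77, 2.28 and 2.22 CPM) and 3, 8 and 1 counts in siFTO replicates 4, 5 and 6 (0.212, 0.497 and 0.0729 CPM). No siFTO library reached the lowest control. Pooled over libraries, 96 counts in the controls and 12 in siFTO gave a ratio of 7.81 (95% counting interval 4.27 to 15.6). The fitted log2 fold change was -2.92 (standard error 0.44). At 1 count in replicate 6, the ratio of replicate 4 to it was 2.91 (95% counting interval 0.234 to 153), so differences among the siFTO libraries were not detectable at this depth. FGF21 lies on chromosome 19 from 48755559 to 48758333, plus strand.

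GDF15 (ENSG00000130513.6), a distant member of the TGF-beta family that rises in many forms of cell stress, was the most abundant of the 8 and did not pass the test. It stood at 144, 169 and 120.4 CPM in the controls and at 139.5, 177 and 148 CPM in siFTO replicates 4, 5 and 6. All but the highest siFTO value lay within the range of the controls. The means were 145 ± 24.3 CPM (SD, n = 3) and 155 ± 19.6 CPM (SD, n = 3), and the log2 fold change was 0.10 (standard error 0.13) and 0.03 with replicate 6 alone. The gene spans chromosome 19 from 18374731 to 18389176, plus strand.

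Levels of different genes can be compared only per length, so CPM were divided by the length of each gene's merged exons in kilobases (RPKM). In the controls the order of mean RPKM (± SD, n = 3) was GDF15 at 69.3 ± 11.7, ADM2 at 17.7 ± 0.489, VEGFA at 6.47 ± 0.515, FGF21 at 1.59 ± 0.213, ADM at 0.986 ± 0.152, STC2 at 0.106 ± 0.0394, VLDLR at 0.0302 ± 0.00896 and STC1 at 0.022 ± 0.0254. Neighbours in this order did not overlap over the 3 controls, except the last, VLDLR and STC1, which did. VEGFA has long alternative exons, and with the longest coding transcript as the length, an alternative chosen after seeing the data, its RPKM became 26.4 and placed it above ADM2. By merged exons, STC2 moved from the sixth place in the controls to the second in siFTO replicates 4 and 5, at 15.6 and 19.1 RPKM, below GDF15 at 66.8 and 84.7 RPKM. STC1 stood at 6.60 and 7.25 RPKM and ADM at 7.05 and 8.07 RPKM in those libraries, both above ADM2 at 6.06 and 6.35 RPKM. Replicate 6 kept the order of the controls for the first places, with GDF15 at 70.8, ADM2 at 5.73, VEGFA at 3.19 and ADM at 0.939 RPKM, whereas FGF21 had 0.0554 RPKM there, now below ADM.

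**Figure D3:**
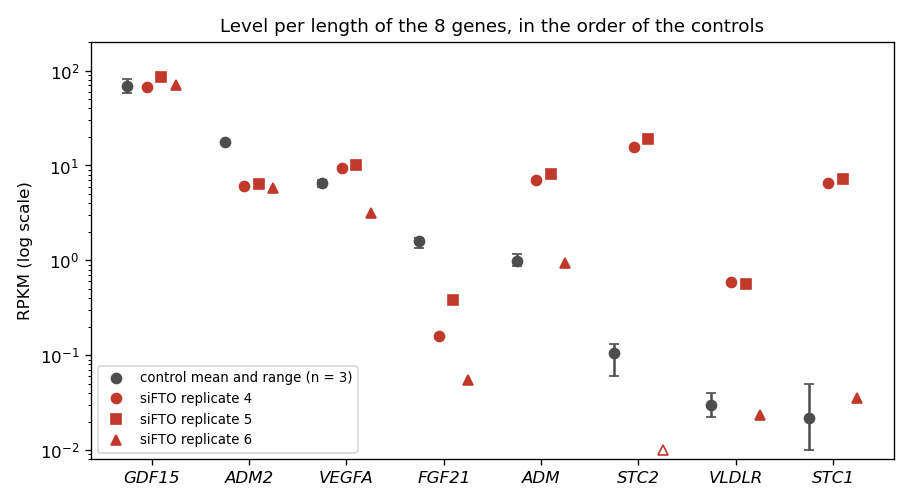
RPKM of the 8 genes on a log axis, ordered by the control mean, with control mean and range (grey) and siFTO replicates 4, 5 and 6 (red circle, square and triangle). The open triangle for STC2, at 0 in replicate 6, and the lower end of the STC1 range, also 0, are drawn at the bottom of the axis. STC2 climbs from 0.106 RPKM in the controls to 15.6 and 19.1 RPKM in replicates 4 and 5.

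The receptors of the adrenomedullins and of GDF15 were near 0 in these cells. CALCRL, the receptor of both adrenomedullins, did not exceed 0.207 CPM in any library, RAMP2 did not exceed 0.0729 CPM and RAMP3 was at 0, leaving RAMP1 at 10.6 to 17.0 CPM in the controls and 8.98 to 10.3 CPM in siFTO. GFRAL, the receptor of GDF15, was at 0 in every library, and its signalling partner RET stayed below 1 CPM. KLB, the co-receptor that FGF21 needs, was at 0.775 to 1.21 CPM in the controls and 0.583 to 1.34 CPM in siFTO. In the list of 20 receptors and partners, 13 genes were tested, of which 6 rose and 1 fell, against 19.5% and 17.9% of all genes tested. The median log2 fold change was 0.43, against 0.0057 over all genes tested. With replicate 6 alone the median was 0.17, against -0.00867 over all genes tested.

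Receptors of VEGFA and of the FGF family were expressed. NRP1, a co-receptor of VEGFA, stood at 8.84, 8.44 and 8.58 CPM in the controls and at 58.8, 67.0 and 14.8 CPM in siFTO replicates 4, 5 and 6, a log2 fold change of 2.45 (adjusted p = 0.00263, edgeR). NRP2, its paralog, rose by 1.48 (adjusted p = 0.000906, edgeR) and FLT1, a VEGF receptor kinase, by 0.85 (adjusted p = 0.00529, edgeR) on the log2 scale. All of NRP1, NRP2 and FLT1 were higher than the controls in each siFTO library, and all were called with replicate 6 alone, at log2 fold changes of 0.78, 0.88 and 1.09. KDR, the main signalling receptor of VEGFA, had no counts in the controls or in replicate 6, but replicates 4 and 5 gave 1.34 and 0.87 CPM. FGFR1 rose (log2 fold change 0.64, adjusted p = 0.0106, edgeR), with 75.8 and 84.4 CPM in replicates 4 and 5 but 51.6 CPM in replicate 6, where its value of 0.19 was not called (adjusted p = 0.418, edgeR). FGFR3 fell (-0.53, adjusted p = 0.00351, edgeR), and its value of -0.46 in replicate 6 was not called (adjusted p = 0.0629, edgeR), while FGFR2 (-0.08) and FGFR4 (-0.07) did not pass the test. PAM, which amidates adrenomedullin peptides, rose by 0.45 on the log2 scale (adjusted p = 0.0305, edgeR), and the protease FURIN by 0.43 (adjusted p = 0.00731, edgeR). With replicate 6 alone FURIN had a value of 0.41 that was not called (adjusted p = 0.0807, edgeR). In replicate 6 PAM stood at 46.6 CPM, beside 44.1 to 46.1 CPM in the controls.

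Among other ligands of the same families, 2 of 11 tested (20 listed) rose (GDF11 and TGFB3) and 2 fell (FGF19 and INHBE), shares near the 19.5% and 17.9% of all genes tested. The median log2 fold change was -0.03, and it was -0.08 with replicate 6 alone. FGF19, another endocrine FGF, which regulates bile acid synthesis, stood at 30.8, 26.5 and 23.4 CPM in the controls and at 16.4, 16.9 and 16.0 CPM in siFTO, a log2 fold change of -0.71 (adjusted p = 0.00225, edgeR). Its groups did not overlap, as for FGF21. VEGFC, which acts on lymphatic vessels, had no counts in the controls or in replicate 6 and 10.5 and 14.4 CPM in replicates 4 and 5, the same libraries in which STC1 and STC2 were found. VEGFC, TGFB3 and INHBE were named after their values were seen.

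Among 15 tested genes of the lipoprotein receptor family and its regulators (20 listed), 4 rose (DAB2, LRP1, LRP6 and LRP4, the latter named after its value was seen) and 1 fell (LRP5), with a median log2 fold change of 0.21, where 19.5% of all genes tested rose and 17.9% fell. With replicate 6 alone 1 of 15 rose (DAB2) and 0 fell, near the 6.17% and 5.89% of all genes. LRP1, LRP6, LRP4 and LRP5 were thus not called with replicate 6 alone. The other reelin receptor, LRP8, had an adjusted p of 0.204 (log2 fold change 0.21, edgeR). LRP8 stood at 60.6, 62.4 and 57.4 CPM in siFTO replicates 4, 5 and 6, without the many-fold difference that VLDLR had between these libraries. DAB2, an endocytic adaptor of this family, was higher in all 3 (38.8, 39.5 and 31.6 CPM) than in the controls (15.2 to 17.8 CPM), a log2 fold change of 1.13 (adjusted p = 0.000372, edgeR).

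The 8 genes sit downstream of different stress pathways, and the other genes of those pathways are given for the same libraries. The list of 28 ATF4 response genes was written with the results of these samples known and is no independent evidence of direction. All were tested, 20 fell and 2 rose (median log2 fold change -0.80), where 17.9% of all genes tested fell and 19.5% rose. With replicate 6 alone the median log2 fold change of the list was -1.04, against -0.00867 over all genes tested. ATF4 itself stood between 1197 and 1463 CPM in the controls and at 507, 485 and 454 CPM in siFTO (log2 fold change -1.42, adjusted p = 5.56e-05, edgeR). The 2 that rose were ATF3, at 17.0, 19.3 and 3.72 CPM in siFTO replicates 4, 5 and 6 where the controls held 4.49 to 6.51 CPM, and ALDH1L2, named after its value was seen. ATF3, a stress-induced repressor, was thus high in the libraries where ADM and STC2 were high and below the controls in replicate 6, where its log2 fold change was -0.52 (adjusted p = 0.27, edgeR). ADM2 and FGF21 had the direction of the ATF4 list, whereas GDF15 and, in replicates 4 and 5, STC2 and VEGFA did not.

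Of 30 hypoxia response genes, all tested, 14 rose and 1 fell (median log2 fold change 0.22), against 19.5% and 17.9% of all genes tested. Fewer of them were called higher with replicate 6 alone, where the median log2 fold change was 0.25, against -0.00867 over all genes tested. The number higher ranged down to 6 when single libraries were left out (without control replicate 3). HIF1A and EPAS1, the oxygen-regulated subunits, rose by 1.87 (adjusted p = 0.00289, edgeR) and 2 (adjusted p = 0.00159, edgeR) on the log2 scale. HIF1A stood at 28.6, 17.4 and 26.2 CPM in the controls and at 106, 118 and 39.7 CPM in siFTO replicates 4, 5 and 6. EPAS1 stood at 10.6 to 13.3 CPM in the controls and at 53.5, 64.0 and 22.4 CPM in the siFTO libraries. BNIP3, a mitophagy gene, stood at 1.54 to 2.43 CPM in the controls and at 20.02, 27.5 and 2.26 CPM in siFTO replicates 4, 5 and 6, the same split as ADM and VLDLR. Its log2 fold change was 3.11 (adjusted p = 0.00668, edgeR) over all libraries and 0.23 (adjusted p = 0.732, edgeR) for replicate 6. ALDOC, a glycolytic aldolase, was the gene that fell (-0.41, adjusted p = 0.0169, edgeR), and its value of -0.41 in replicate 6 was not called (adjusted p = 0.125, edgeR).

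For the unfolded protein response, 8 of 19 tested genes rose and 2 fell (median log2 fold change 0.15). Over all genes tested 19.5% rose and 17.9% fell. Fewer genes of the list were called in each direction with replicate 6 alone. The median log2 fold change of the whole list was then 0.19, against -0.00867 over all genes tested. SEL1L, a component of endoplasmic reticulum-associated degradation, rose by 0.84 (adjusted p = 0.00414, edgeR), with 54.8 and 56.0 CPM in replicates 4 and 5 but 34.3 CPM in replicate 6, where its value of 0.34 was not called (adjusted p = 0.154, edgeR). HERPUD1 fell by 0.40 (adjusted p = 0.0054, edgeR) on the log2 scale. XBP1 was listed at 0 in every library, while HSPA5 of the same list stood at 964 to 1335 CPM. The annotation used for counting was not given, so this 0 need not mean that XBP1 was silent. Among p53 targets, a group to which GDF15 also belongs, 14 of 21 rose and 2 fell (median log2 fold change 0.67). The shares over all genes tested were again 19.5% and 17.9%. With replicate 6 alone the median of these targets was 0.49. CDKN1A, the cell cycle inhibitor p21, stood at 161 to 181 CPM in the controls and at 325, 379 and 319 CPM in siFTO, a log2 fold change of 0.98 (adjusted p = 0.000267, edgeR). ZMAT3 and AEN rose by 0.92 (adjusted p = 0.000493, edgeR) and 0.86 (adjusted p = 0.000537, edgeR). GDF15 showed no such difference in any of the 3 siFTO libraries.

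**Figure D4:**
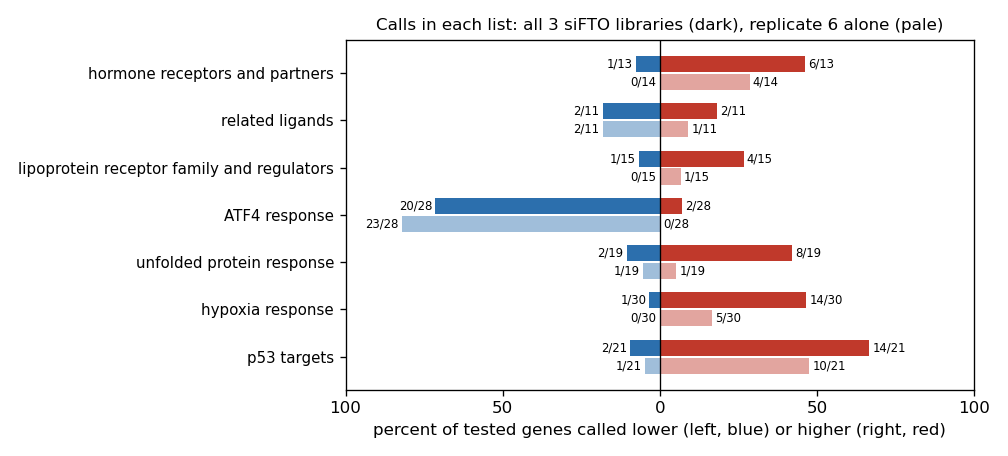
Percent of the tested genes of each list that edgeR called higher (right) or lower (left), for all 3 siFTO libraries (dark bars) and for replicate 6 alone (pale bars), with the counts beside each bar. The ATF4 list is mostly lower in both sets of bars, whereas fewer genes of the hypoxia list are higher in the pale bars. With all 3 siFTO libraries, 20 of 28 ATF4 genes were lower, where 17.9% of all genes tested were. Of 30 hypoxia genes, 14 were higher, where 19.5% of all genes tested were.

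The genes whose log2 CPM ran most like each tested member were ranked by Pearson's r over the 6 libraries, which share the same 2 groups and the same split of replicates 4 and 5, among 10342 genes whose mean log2 CPM reached 3 (10343 for FGF21). For STC2 they were HOMER2 (r = 0.996), ATP6V1B2 (r = 0.996) and the cytokine CLCF1 (r = 0.993), and for ADM they were ANXA5 (r = 0.999), RND3 (r = 0.998) and LOXL2 (r = 0.998). LOXL2, a collagen-modifying oxidase, stood at 0.723 to 1.14 CPM in the controls and at 92.8, 125 and 1.09 CPM in siFTO replicates 4, 5 and 6. Nearest to ADM2 were GPT2 (r = 0.999), MRPL10 (r = 0.999) and PSAT1 (r = 0.998), the first and last of which are enzymes of alanine and serine synthesis. FGF21 ran with CDC42EP1 (r = 0.998), PCIF1 (r = 0.997) and DUT (r = 0.996), VEGFA with INSIG1 (r = 0.987), MANBAL (r = 0.979) and TRMT2B (r = 0.974), and GDF15 with CCM2 (r = 0.959), TBKBP1 (r = 0.956) and SPACA6 (r = 0.947). The number of genes above an r of 0.95 was 114 for STC2, 245 for ADM, 554 for ADM2, 222 for FGF21, 13 for VEGFA and 2 for GDF15, so a high r was common for the members that followed the groups or the split.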

How the data were processed

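RNA-seq of 253J cells was used from 3 control and 3 siFTO libraries, grouped by their labels. The authors deposited 1 file of raw counts per library. Per the submitters' processing notes, TopHat2 2.0.11 and HTSeq were used, with hg19 and GRCh37 as the builds named. For annotation and strand the setting was not given in the sources used here, so reads of a gene and of one overlapping it on either strand are not separable. R 4.3.3 with edgeR 4.0.16 applied filterByExpr (minimum count 10, minimum total 15), TMM scaling and a two-sided quasi-likelihood test of group, with Benjamini-Hochberg adjustment over the 14965 genes tested and a threshold of 0.05. The fit of replicate 6 against the controls takes its spread from the controls. Standard errors are the log2 fold change over the square root of F. Gene IDs were matched without version to GENCODE 29 on GRCh38 for position and length, so the counting may have used other positions. The promoter start is that of RefSeq and can differ from the first base of the GENCODE gene. The members, the gene lists and the tests were chosen with earlier results of these data known. Other genes named were FTO, the receptors and partners, up to 3 called genes per list and direction by size of change at an average log2 CPM of at least 3, the markers of highest level, and the 3 genes most like each member, and not all are printed. Alternatives were other scalings and filters, DESeq2 1.42.0, limma 3.58.1 (voom), leaving out libraries, and a threshold of 0.01. The test was tested on simulated data first. 1 gene of the lipoprotein receptor list is not reported here and was taken out of its counts.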

Additional observations from a re-analysis of the deposited data

How the results depend on the processing

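No paired analysis was possible because controls are numbered 1 to 3 and siFTO libraries 4 to 6, with no number in common. STC2 and ADM were no longer called with limma voom (log2 fold changes 3.62 and 1.99, against 6.68 and 2.45) or without any 1 control library. Leaving out 1 library at a time, genes higher in siFTO ranged from 1383 (without control replicate 1) to 3826 (without siFTO replicate 6), genes lower from 1589 (without siFTO replicate 4) to 2928 (without siFTO replicate 6), and the log2 fold change of FGF21 from -3.80 (without siFTO replicate 5) to -2.53 (without siFTO replicate 6). With replicate 6 as the only knockdown library, 970 genes were higher and 926 lower, and the log2 fold change was -6.34 for STC2, -0.07 for ADM, -1.63 for ADM2, -4.70 for FGF21 and -1.02 for VEGFA. The values of STC2 and FGF21 rest there on 0 and 1 counts and depend on the fit. With library totals alone, 4088 genes were higher and 1787 lower (69.6% of calls higher, against 52.0% with TMM), the median of all genes was 0.126 against 0.00573, the log2 fold change of ADM2 was -1.43 and FTO was no longer called (adjusted p = 0.0576, edgeR). At an adjusted p under 0.01, 1411 genes were higher and 1338 lower. By CPM with no division by length, VEGFA ranked 2, ADM2 3, ADM 4 and FGF21 5 in the controls, and by the longest coding transcript VEGFA ranked 2 and ADM2 3. Of 336 counts of called genes in the lists, 259 stayed within 1.5 times the reported count. The fibroblast and mesenchymal list, with 8 genes higher of 10 tested, had 3 with limma voom, 2 without control replicate 1 or 3, 0 without control replicate 2 and 14 without siFTO replicate 6. A filter of 10 counts in every library left no value for STC2 and FGF21, and STC1 and VLDLR were not tested. Depth limits STC1, STC2, VLDLR and FGF21, each of which had at least 1 library with 4 counts or fewer.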
